A study of Homo sapiens with 2 samples.

Results

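RNase P and RNase MRP are ribonucleoprotein enzymes of the nucleus, each built around a noncoding RNA made by RNA polymerase III, and they share most of their protein subunits. RNase P, whose RNA is RPPH1 (H1 RNA), removes the 5′ leader of precursor tRNAs, and RNase MRP, whose RNA is RMRP, takes part in cutting precursor ribosomal RNA. Neither RNA is polyadenylated in its mature form, whereas the subunit mRNAs are RNA polymerase II products that receive a poly(A) tail. Of 10 components looked for by symbol among 14914 listed features, 9 were found: the RNA components RPPH1 and RMRP and the mRNAs of 7 protein subunits (POP1, POP4, POP5, POP7, RPP14, RPP30 and RPP38). RPP40 has no row and was not analysed here.

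The values come from RNA immunoprecipitation sequencing (RIP-seq) in HUH7, an established hepatocellular carcinoma line. The series asks which RNAs CSTF2 may bind. CSTF2 binds RNA as part of the cleavage stimulation factor, a complex that helps to form mRNA 3′ ends at sites followed by G- and U-rich sequence. There were 2 groups of 1 library each: RNA recovered with CSTF2 (IP) and input RNA (Input), both from the unmodified line as far as the labels say. A mock immunoprecipitation was not used here.

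The IP held 3220045 assigned reads and the Input 9517885. Since each group is a single library, differences have no replicate check and no test was made between groups. Each ratio of RPKM (read numbers normalised for gene length and depth) has an exact 95% interval from recovered reads that covers counting error only. Of 8 hepatic lineage markers, 8 were listed, with ALB, for serum albumin, at 200.3 RPKM in the IP library and 254 RPKM in the Input library. The lowest of them was TTR, at 1.43 RPKM in the IP library and 4.25 RPKM in the Input library. Of 7 markers of blood, endothelial and stromal cells, 2 were listed (COL1A2 and LUM), each above 1 RPKM in both libraries. LUM, at 5.16 RPKM in the IP library and 7.27 RPKM in the Input library, was above TTR in both. The mRNA of CSTF2 had 487 RPKM in the IP library and 6.97 RPKM in the Input library, on 3429 and 145 reads. It was 69.9-fold higher in the IP (59.2 to 83.1) and ranked 1 from the highest on the log2 scale described below. The cause of that value was not tested.

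The RNA components are shown first because they carry the largest difference among the components. Capitals mark a pattern of 8 bases, GGAANGTC, that a search on both strands found once on the RNA strand of each. It lies in the stretch known as conserved region I of the catalytic core. The sequences are those of GENCODE 29 transcripts on GRCh38, written with T for U.
RMRP, chr9:35657751-35658018, minus strand: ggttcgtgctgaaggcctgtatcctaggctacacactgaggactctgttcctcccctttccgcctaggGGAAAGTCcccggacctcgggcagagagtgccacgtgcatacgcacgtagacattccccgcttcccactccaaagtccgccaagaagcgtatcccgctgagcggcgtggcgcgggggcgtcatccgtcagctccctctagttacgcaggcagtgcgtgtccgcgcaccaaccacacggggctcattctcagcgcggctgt
RPPH1, chr14:20343075-20343407, minus strand, bases 1 to 300 of 333: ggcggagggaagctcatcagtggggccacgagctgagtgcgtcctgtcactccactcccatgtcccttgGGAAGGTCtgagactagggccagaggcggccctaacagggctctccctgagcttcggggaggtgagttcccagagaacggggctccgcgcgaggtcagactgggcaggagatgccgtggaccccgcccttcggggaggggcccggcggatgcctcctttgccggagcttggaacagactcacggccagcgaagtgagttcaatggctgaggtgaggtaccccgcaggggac

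The pattern spans bases 69 to 76 of RMRP and 70 to 77 of RPPH1. It occurs on the sense strand in 1.78% of 3313 listed features with a transcript of 200 to 400 bases (1 transcript each), and RMRP also holds it once on the opposite strand. Both RNAs are rich in G and C, at 63.1% for RMRP and 64.6% for RPPH1. The poly(A) signal hexamers AATAAA and ATTAAA are in neither RNA on either strand. On the sense strand they occur in 18.5% and 11.1% of those transcripts. TGTGT, a GU-rich motif of the kind associated with CSTF2, is on the sense strand of neither RNA and in 30.6% of those transcripts. It occurs once on the opposite strand of RMRP.

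Both RNA components were far lower in the IP than in the Input. RPPH1 had 51.1 RPKM in the IP library and 1140 RPKM in the Input library, from 105 and 6920 reads. That is 22.3-fold lower in the IP (95% interval 18.4 to 27.3). RMRP had 27.8 RPKM in the IP library and 467 RPKM in the Input library, from 24 and 1190 reads. It was 16.8-fold lower (11.2 to 26.3). The 2 RNAs together took 0.00401% of the IP reads (Wilson 95% interval 0.00337 to 0.00476) and 0.0852% of the Input reads (0.0834 to 0.0871).

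**Figure D1:**
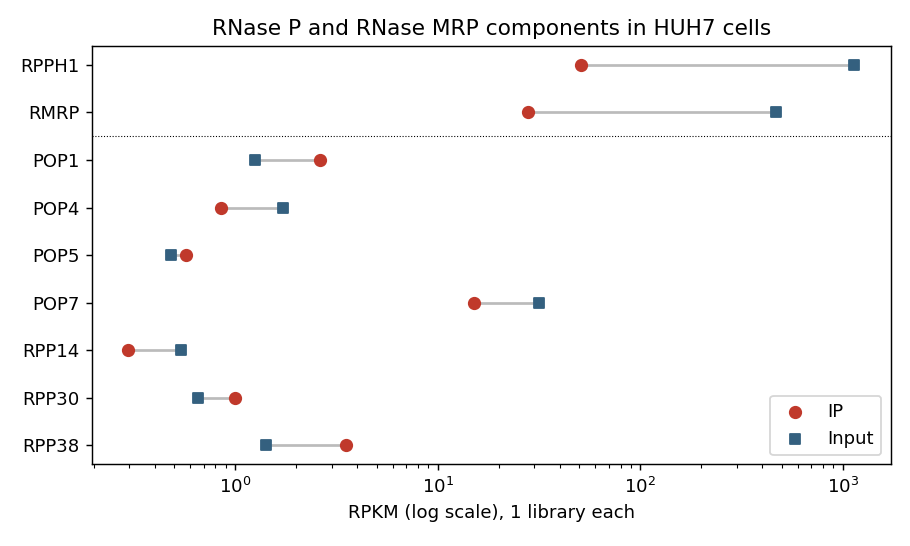
RPKM of each listed component in the IP (circles) and the Input (squares), 1 library each, on a log axis, with the RNA components above the dotted line. RPPH1 and RMRP lie at 51.1 and 27.8 RPKM in the IP, and at 1140 and 467 RPKM in the Input, while the subunit mRNAs differ far less and in both directions.

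Within each library RPPH1 was above RMRP. RPPH1 RPKM was 1.84 times that of RMRP in the IP and 2.44 times in the Input. The IP over Input ratio of RMRP was 1.33 times that of RPPH1, with an exact interval of 0.812 to 2.10 that includes 1. At this depth a difference between the RNAs of the 2 enzymes was not detectable within those bounds.

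For features that averaged 1 RPKM or more over both libraries, differences were taken as log2((IP + 1)/(Input + 1)) of RPKM, a scale that understates the change of low features. Of 9880 such features, 976 (9.88%) were 2-fold or more higher in the IP and 675 (6.83%) were lower by that much, with a median log2 ratio of 0.17. With ratios centred on that median the split was 684 higher and 944 lower. On this scale RPPH1 was at -4.45 and RMRP at -4.02, the 20th and the 43rd lowest of the 9880. By RPKM among all listed features, RPPH1 ranked 343 in the IP and 35 in the Input. RMRP ranked 668 in the IP and 60 in the Input.

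Short length and high abundance in the Input went with calls of their own, in windows chosen after the values were seen. Of 886 features with a length of 200 to 700 bp, 16.7% were lower by 2-fold or more and 31.4% were higher. Of 222 features with at least 100 RPKM in the Input, 30.2% were lower by 2-fold or more and 10.4% were higher. The part of length and abundance in the values of RPPH1 and RMRP was not tested.

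**Figure D2:**
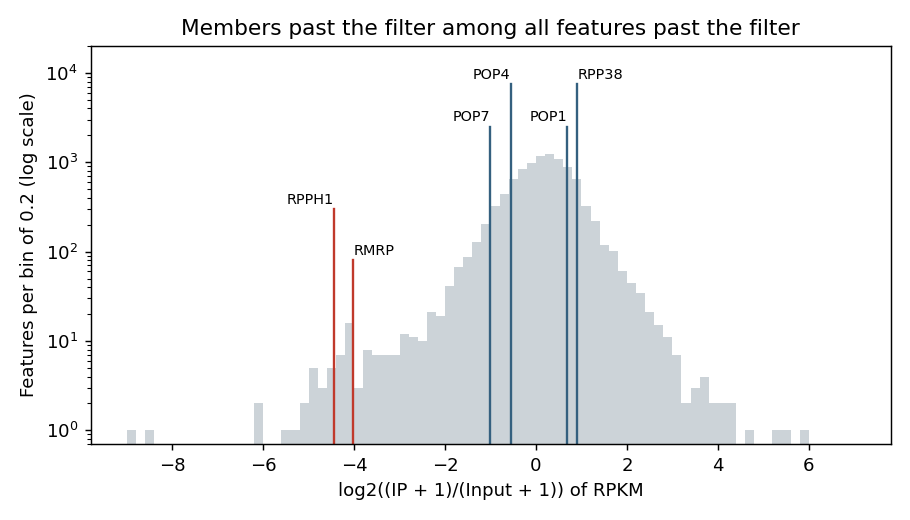
Number of features per bin of log2((IP + 1)/(Input + 1)) of RPKM (log count axis) for the 9880 features past the filter, with the 6 components past it as lines. RPPH1 (-4.45) and RMRP (-4.02) stand in the far lower tail, and POP7, POP4, POP1 and RPP38 within the main body.

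The row named RPPH1 covers more than the mature RNA. The gene length recovered from its RPKM values was 638 bp, against 333 bp for the RPPH1 gene in GENCODE 29. It equals the length of the unspliced antisense gene AL355075.4 (chr14:20343048-20343685, minus strand), which contains RPPH1 and has no row of its own. Scaled to 333 bp, with every read taken to come from the mature RNA, RPPH1 would have 97.9 RPKM in the IP library and 2183 RPKM in the Input library. It would then be 3.52 times RMRP in the IP and 4.68 times in the Input, while its IP over Input ratio does not depend on the length. The length of the RMRP row, 268 bp, is that of a GENCODE 29 gene named RMRP. Another gene of that name, of 264 bp on the same strand, shares all its 264 bp with it.

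Both RNA genes lie head to head with a protein-coding gene, which gives a comparison within each locus. The AL355075.4 model overlaps the first exon of PARP2, on the opposite strand, by 104 bp, and the protocols do not say that strand was kept. PARP2 encodes a DNA damage responsive poly(ADP-ribose) polymerase. It had 4.55 RPKM in the IP library and 4.49 RPKM in the Input library, from 60 and 175 reads, a ratio of 1.01 (0.743 to 1.37). The ratio of RPPH1 was 22.6 times lower than that of PARP2 (15.6 to 32.5). If every PARP2 read were taken out of the RPPH1 row, RPPH1 would be 50.7-fold lower (37.9 to 69.6). That is an extreme setting, because only 104 bp of the 4096 bp of PARP2 exon lie in the overlap. It uses the ratio of the whole PARP2 row. The ratio of reads within those 104 bp is not known, nor is whether a read could count for both rows. The part of the overlap in the RPPH1 value was not tested.

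RMRP shares no exon with its neighbour CCDC107, a gene for a coiled-coil protein, and 271 bp separate their starts. CCDC107 had 1.92 RPKM in the IP library and 3.89 RPKM in the Input library on 9 and 54 reads, a ratio of 0.493 (0.214 to 1.01). The ratio of RMRP was 8.23 times lower than that of CCDC107, with a wide interval of 3.21 to 19.5. At both loci the polymerase III RNA had a lower IP over Input ratio than the mRNA that starts beside it.

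**Figure D3:**
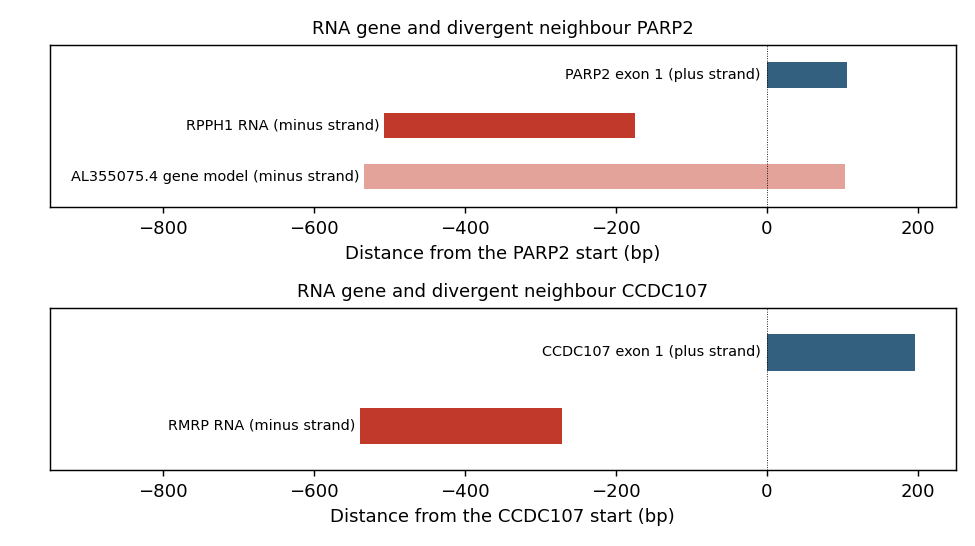
Gene models at the 2 RNA loci by distance in bp from the start of the divergent protein-coding neighbour, with minus-strand RNA genes in red and plus-strand first exons in blue. The AL355075.4 model of 638 bp runs past the RPPH1 RNA into the first exon of PARP2, with 104 bp shared, while 271 bp separate the starts of RMRP and CCDC107.

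The DNA between the starts of each pair is shown because both members of the pair start from it. Capitals mark 2 motifs searched on both strands, the octamer ATGCAAAT, known as a binding site of POU2F1, and the TATA-like TATAA. The bases come from RefSeq promoter windows of PARP2 and CCDC107 on GRCh38, plus strand. Both sequences run away from the 5′ end of the RNA gene, and the second starts short of it, where its window begins.
RPPH1 to PARP2, chr14:20343408-20343581: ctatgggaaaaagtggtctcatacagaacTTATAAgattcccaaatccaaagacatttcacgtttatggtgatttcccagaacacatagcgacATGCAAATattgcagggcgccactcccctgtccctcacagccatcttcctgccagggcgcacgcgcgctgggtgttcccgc
RMRP to CCDC107, chr9:35658042-35658289: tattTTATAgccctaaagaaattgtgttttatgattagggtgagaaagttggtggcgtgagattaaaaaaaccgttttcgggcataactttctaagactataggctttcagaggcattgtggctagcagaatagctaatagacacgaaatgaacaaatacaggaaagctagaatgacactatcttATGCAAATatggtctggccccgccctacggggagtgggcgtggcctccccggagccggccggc

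The near end of TATAA, read on the strand of the RNA gene, lies 30 bases from the annotated 5′ end of RPPH1 and 28 bases from that of RMRP. In the first interval a second match on the other strand overlaps it. The near end of the octamer lies 94 bases from RPPH1 and 209 bases from RMRP. Of 35116 RefSeq promoter windows, 1.77% hold the octamer on either strand, 20.4% hold TATAA and 0.575% hold both. These matches describe the letters only.

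The mRNAs of the protein subunits did not share the difference of the RNAs. Of 7 listed, 2 had a ratio whose interval lay above 1 (POP1 and RPP38), 2 below 1 (POP4 and POP7) and 3 an interval that includes 1 (POP5, RPP14 and RPP30). Their log2 ratios, which here include the 3 mRNAs below a mean of 1 RPKM, ran from -1.01 to 0.91. The median of all 7 was 0.08, the value of POP5 on 4 and 10 reads. It was 0.06 for the 4 mRNAs past that mean, against a median of -4.24 for the RNA components. By reads summed over each class, the RNA components had an IP over Input ratio 17.2 times lower than the subunit mRNAs (13.3 to 22.2). The RNA components made up 76.7% of the summed RPKM of the 9 components in the IP and 97.7% in the Input.

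**Figure D4:**
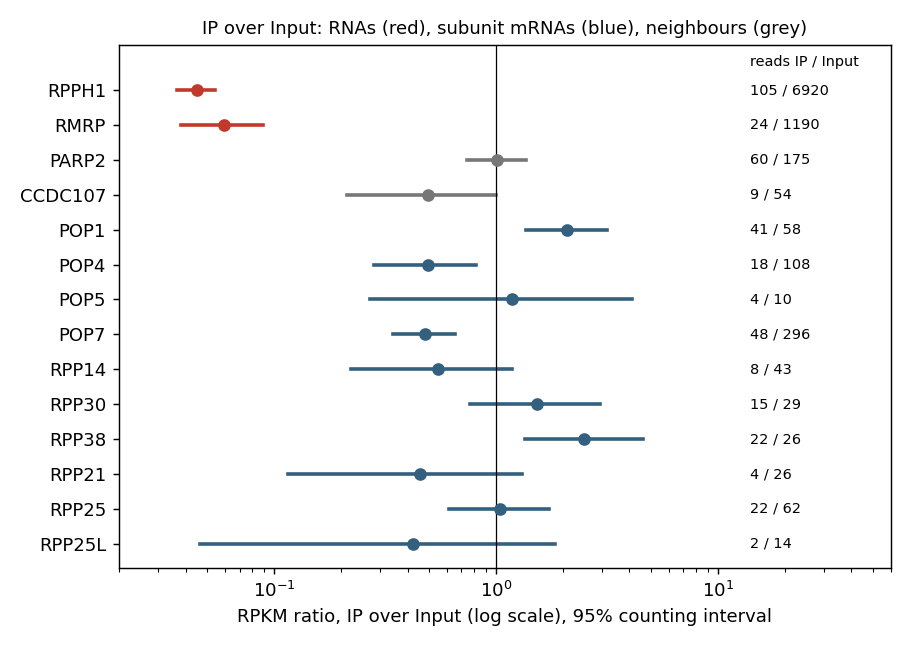
RPKM ratio of IP over Input (log axis) with its exact 95% counting interval and the reads behind it, for the RNA components (red), their divergent neighbours (grey) and the subunit mRNAs (blue). RPPH1 and RMRP lie below every other interval except that of RPP25L, which rests on 2 and 14 reads.

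POP1 encodes the largest protein subunit, which binds the RNA directly. It had 2.62 RPKM in the IP library and 1.26 RPKM in the Input library on 41 and 58 reads, 2.09-fold higher (1.37 to 3.17). RPP38 encodes a subunit that recognises kink-turns in RNA. It had 3.54 RPKM in the IP library and 1.42 RPKM in the Input library on 22 and 26 reads, 2.50-fold higher (1.35 to 4.59). With the pseudocount their log2 ratios were 0.68 and 0.91, short of 2-fold. RPP38 shares 379 bp of exon with NMT2 on the opposite strand, so part of its reads may belong to that gene.

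POP7 encodes the Rpp20 subunit, which pairs with RPP25. It was the most abundant subunit mRNA, at 15.1 RPKM in the IP library and 31.5 RPKM in the Input library on 48 and 296 reads, 2.09-fold lower (1.53 to 2.89). POP7 made up 62.9% of the summed RPKM of the subunit mRNAs in the IP and 83.8% in the Input. POP4 encodes the Rpp29 subunit and had 0.850 RPKM in the IP library and 1.73 RPKM in the Input library on 18 and 108 reads, 2.03-fold lower (1.23 to 3.55). These mRNAs thus went the other way from POP1 and RPP38. The ratio of RPP38 was 5.19 times that of POP7 (2.58 to 10.4), and the ratio of POP1 was 4.21 times that of POP4 (2.15 to 8.54). RPP38 against POP1 and POP7 against POP4 had ratios of ratios of 1.20 (0.562 to 2.54) and 0.973 (0.528 to 1.86), both intervals including 1. These pairs were not planned and follow the side of 1 on which each ratio lay. Their intervals therefore describe the values and do not test a division of the subunits.

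The other 3 subunit mRNAs did not reach a mean of 1 RPKM. RPP30, for a subunit that pairs with POP5, had 1.001 RPKM in the IP library and 0.655 RPKM in the Input library on 15 and 29 reads, a ratio of 1.53 (0.762 to 2.95). POP5 had 0.572 RPKM in the IP library and 0.484 RPKM in the Input library on 4 and 10 reads, a ratio of 1.18 (0.271 to 4.10). RPP14 had 0.297 RPKM in the IP library and 0.540 RPKM in the Input library on 8 and 43 reads, a ratio of 0.550 (0.223 to 1.18). RPP14 shares 1885 bp of exon with HTD2 on the same strand, a mitochondrial fatty acid synthesis gene encoded by the same transcripts, which has no row.

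Of the 9 components, 6 were past the filter. On the pseudocount scale 3 of these 6 were lower by 2-fold or more (RPPH1, RMRP and POP7) and 0 were higher by that much, beside 6.83% and 9.88% of all 9880 features. The call of POP7, at -1.01, lies at the threshold, and with a pseudocount of 5 RPKM it was -0.86. Among 7643 protein-coding features past the filter, 5.18% were lower and 5.81% higher by 2-fold or more. The 3 subunits outside the list of 10 had intervals that include 1. RPP25, of the Alba family, had a ratio of 1.05 (0.614 to 1.73). RPP21 and RPP25L had ratios of 0.455 (0.115 to 1.31) and 0.422 (0.0466 to 1.84), on 4 and 2 reads in the IP.

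Other RNAs made by polymerase III were mostly lower in the IP too. Of 10 listed and past the filter, 9 were lower and 0 higher by 2-fold or more, beside 6.83% and 9.88% of all features. One of the 9, the vault RNA VTRNA1-1, had 0 IP reads and 16 Input reads. At an assumed floor of 3 IP reads it was 1.80-fold lower and so short of 2-fold. By the exact interval, which gives weaker bounds than that floor, VTRNA1-1 and VTRNA1-2 both fell short of 2-fold. The median log2 ratio of the 10 RNAs was -4.39, or -3.17 with the 4 that had no IP read placed at that floor. The lowest were RNY1, a Y RNA, and RNU6ATAC, the U6atac spliceosomal RNA. RNY1 had 0 IP reads and 393 Input reads, 44.3-fold lower at that floor and at least 35.9-fold lower by its exact interval. RNU6ATAC had 6 and 591 reads and was 33.3-fold lower. The highest were VTRNA1-3, a vault RNA, with 2 and 12 reads (ratio 0.493, 0.0536 to 2.21), and BCYRN1, the BC200 RNA. BCYRN1 had 2 and 36 reads and was 6.09-fold lower (1.57 to 52.2). Together, RPPH1 and RMRP had an IP over Input ratio 1.08 times that of the 7SL RNA genes of the signal recognition particle, RN7SL1 and RN7SL2 (0.897 to 1.29). Their ratio was 1.28 times lower than that of RN7SK (1.07 to 1.54), the RNA that regulates elongation factor P-TEFb.

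Lists of mRNAs for related steps had medians near that of all features. The counts below stand beside 9.88% of all 9880 features at least 2-fold higher and 6.83% lower. Of 3 past the filter that serve mitochondrial RNase P and tRNA 3′ processing, 1 was at least 2-fold higher. It was ELAC2, the tRNA 3′ endonuclease, with 11.2 RPKM in the IP library and 4.70 RPKM in the Input library, 2.38-fold higher (1.99 to 2.85). Of the mitochondrial RNase P subunits, which work without an RNA, TRMT10C had a ratio of 1.04 (0.699 to 1.52) and HSD17B10 one of 1.05 (0.821 to 1.33). Another subunit, listed as KIAA0391, was below the filter, with a ratio of 1.05 (0.607 to 1.76) on 21 and 59 reads. Of 14 genes of tRNA splicing and end maturation, 0 passed 2-fold in either direction on the pseudocount scale. Their median log2 ratio was -0.04. ZBTB8OS and TSEN15 were lowest, at -0.86 and -0.70, and TSEN54, a subunit of the tRNA splicing endonuclease, was at 0.39. By RPKM ratio ZBTB8OS was 2.03-fold lower (1.47 to 2.86).

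Of 32 genes of precursor ribosomal RNA processing, 0 passed 2-fold on the pseudocount scale, with a median of 0.28. The ends were MPHOSPH6 and C1D, cofactors of the nuclear exosome, at -0.93 and -0.71, and NOP14 and LAS1L, for ribosome assembly, at 0.70 and 0.77. By RPKM ratio C1D was 2.37-fold lower (1.21 to 5.15) on 10 and 70 reads. Of 8 factors of the polymerase III promoter type that RPPH1 and RMRP use, 2 were higher and 1 lower by 2-fold or more. The shares of all features were 9.88% and 6.83%. The median of the 8 was 0.14. SNAPC4, the largest subunit of the snRNA activating complex, had 5.72 RPKM in the IP library and 1.58 RPKM in the Input library, 3.62-fold higher (2.64 to 4.96). BRF2, a subunit of the initiation factor TFIIIB, was 4.01-fold higher (1.91 to 8.65) on 19 and 14 reads. At 2.14 RPKM in the IP library and 0.533 RPKM in the Input library, it passed the filter only through the IP. A filter of 5 RPKM leaves out both SNAPC4 and BRF2, and then 0 factors were higher and 1 lower. SNAPC5 was 2.51-fold lower (1.63 to 4.02), and TBP, at a log2 ratio of -0.41, was the next lowest.

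**Figure D5:**
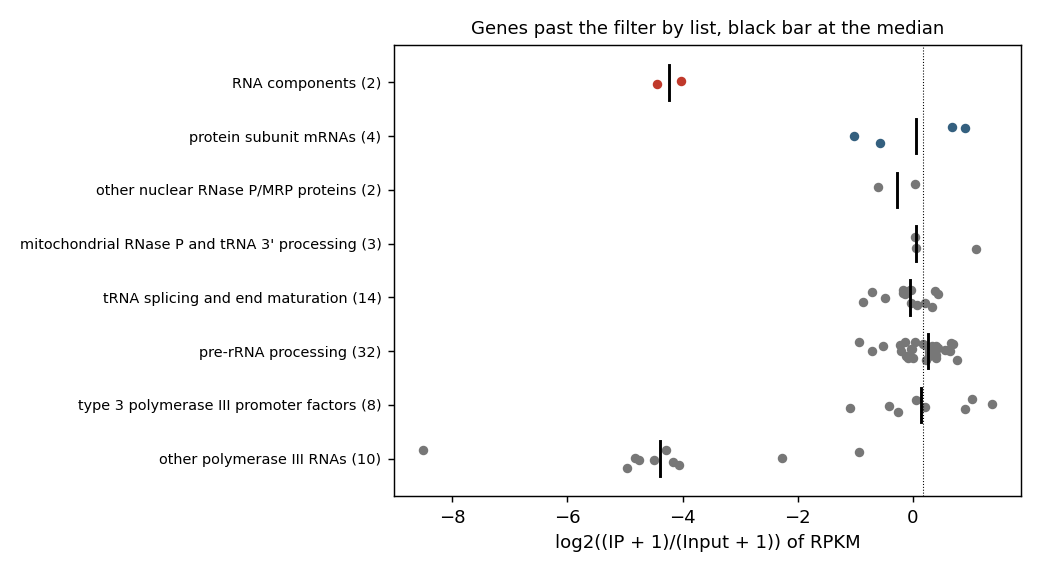
log2((IP + 1)/(Input + 1)) of RPKM for genes past the filter, by list, with the number of genes in brackets, a black bar at each median and a dotted line at the median of all features (0.17). The RNA components and the other polymerase III RNAs have medians of -4.24 and -4.39, while the medians of the mRNA lists lie between -0.28 and 0.28. The value of -4.39 includes 4 RNAs with no IP read, and was -3.17 with them placed at a floor of 3 IP reads.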

How the data were processed

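RNA was measured by RIP-seq in HUH7 cells (1 IP and 1 Input library). Per the labels' protocols, libraries were made from fragmented RNA by random hexamer priming, adapter ligation, bead size selection and PCR for Illumina sequencing. FastQC 0.12.0 and build hg38 are named in the submitters' processing notes. No aligner, counter or annotation is given in the sources used here. The authors deposited, per the file headers, RPKM values for both libraries and log2 fold changes (IP over Input) for each of 14914 features.

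Whole reads and gene lengths were recovered from both kinds of value for all features but PGK1 (14913), to within 0.001 reads. The method was tested on simulated data. The recovered length equalled the GENCODE 29 exon union (GRCh38) for 11437 of 12660 features matched to 1 gene.

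Python 3.11.15, pandas 2.3.3 and SciPy 1.17.1 were used. Intervals of ratios, and of ratios of ratios, are exact conditional 95% intervals of counting error. They treat reads as independent, which PCR copies without molecular identifiers need not be. The pseudocount was 1 RPKM and the filter a mean of 1 RPKM. Alternatives were other pseudocounts, filters, thresholds, centring, class summaries and, added after the data were seen, the length of RPPH1. Named were all components, 3 further subunits, the genes beside the RNA genes, CSTF2 and the extremes of each list. One gene that this rule names is not reported here. No copy or pseudogene of a component is listed. The components and lists were chosen with earlier results of these data known.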

Additional observations from a re-analysis of the deposited data

How the results depend on the processing

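RPPH1 and RMRP stayed at least 4-fold lower on the log2 scale under pseudocounts of 0.1 and 5 RPKM, centring and trimmed mean scaling, with log2 ratios from -4.68 to -4.35 for RPPH1 and from -4.24 to -3.85 for RMRP. No component's log2 ratio past 2-fold changed sign. The components at least 2-fold lower numbered 2 or 3 under every alternative run. Those at least 2-fold higher (0) became 2 with a pseudocount of 0.1 RPKM and with a 1.5-fold threshold. In the tRNA splicing and precursor ribosomal RNA lists, the genes at least 2-fold lower went from 0 to 1 in each. This held with a pseudocount of 0.1 RPKM, with centring and with trimmed mean scaling. The RNA components lay 4.32 below all 7 subunit mRNAs by median log2 ratio (-4.32), and -3.70 by summed RPKM, a sum that POP7 dominates. Without RPP38, whose exons overlap another listed feature, it was -4.15. Of all features, 976 were at least 2-fold higher and 675 lower. A pseudocount of 0.1 RPKM gave 1830 higher and 1023 lower, one of 5 RPKM gave 186 and 295, a filter of 5 RPKM gave 327 and 407, a 1.5-fold threshold 2569 and 1484, and a 4-fold threshold 151 and 149. For these changes other than by filter and threshold, the cause was not tested. Depth limits the subunit mRNAs, with 4 to 48 reads each in the IP. No paired analysis was possible because each group has 1 library.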
